A study of Mus musculus with 6 samples.

Results

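Cytochrome P450 genes encode haem enzymes that insert an oxygen atom into foreign chemicals, fatty acids, sterols, steroid hormones and vitamins. The enzymes of families 1 to 3 clear drugs and pollutants, mostly in hepatocytes, where the receptors Ahr, CAR (Nr1i3) and PXR (Nr1i2) switch many of them on. Other families act in many tissues, among them leukotriene-degrading Cyp4f enzymes of myeloid cells and oxysterol-forming enzymes that guide immune cell positioning in lymphoid organs. The genes described here are those whose probe sets the platform annotation maps to 1 gene symbol starting with Cyp and a number, with the sterol synthesis gene Cyp51 left out. They came to 72 genes on 95 probe sets, of 18193 genes with such a probe set on the array. Of the 72, 1 carries a pseudogene symbol (Cyp4f41-ps). Members of a subfamily are close copies of each other, so that a probe set may also pick up a relative of the gene it is named for.

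Whole spleens came from 2 groups of Balb/c mice. In the first, 3 mice were given PFOS (perfluorooctane sulfonate), a fluorinated surfactant that persists in the body, at 10 mg per kg a day for 3 weeks through a stomach tube. The second held 3 untreated mice. All 6 mice were labelled female and 6 to 8 weeks old, and nothing in the labels says that the untreated mice received the vehicle. Each spleen's RNA was hybridized to 1 Affymetrix Mouse430_2 array. The study set out to find spleen transcripts that PFOS alters. The arrays go against the label of sex: Y-linked Eif2s3y lay between 9.76 and 9.91 (log2) in PFOS and between 9.62 and 9.70 in control spleens, while Xist, the transcript of the inactive X chromosome, lay between 5.75 and 5.86 in PFOS and between 5.62 and 5.86 in control. Spleen markers were present in both groups, with the spleen-forming factor Tlx1 at 8.15 in PFOS and 7.80 in control and the red pulp macrophage factor Spic at 9.83 in PFOS and 9.26 in control.

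Values are log2 values from RMA, which sets all arrays to 1 distribution, so each change is relative to the rest of the array. The array medians lay between 6.16 and 6.18. Over the 13101 genes tested, correlations were 0.9985 to 0.9991 for arrays of the same group and 0.969 to 0.970 for arrays of different groups. Limma called 66.6% of the tested genes, with 26.0% lower and 40.6% higher in PFOS. A share of P450 genes has to be read against that background, and p-values measure only the spread between these arrays, which may be technical. The labelling spikes, bacterial transcripts added to the RNA, differed by -0.53 (6.11 ± 0.02 in PFOS and 6.65 ± 0.01 in control, SD, n = 3), and scaling on them would raise every change below by 0.53. Under that scaling 92.1% of the tested genes were called higher and 5.52% lower.

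A floor of 5.62, the 40th percentile of all probe sets that are not array controls, was used to separate expressed from background-level P450 genes, since detection calls were not used here. Both group means reached the floor in 24 of the 72 genes. In 8 genes the control mean alone reached it, in 1 gene (Cyp2u1) the PFOS mean alone, and in 39 genes neither. A gene was tested if its mean over the 6 arrays reached the floor, which 31 did. Nearest to this limit were Cyp2u1 at a mean of 5.65 and Cyp4f15 at 5.68 inside it, and Cyp24a1 at 5.48 and Cyp1a1 at 5.43 outside it.

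Of the 31 P450 genes tested, 13 were lower in PFOS (26.0% of all tested genes were), 11 were higher (40.6% of all) and 7 were not called at an adjusted p of 0.05. Among the 13, 5 fell at least 2-fold, against 2.92% of all genes, and 0 of the 11 rose as much, against 0.0687% of all. The counts of falls rest in part on the filter, because 6 of the 13 reached it through their control arrays alone and so could only be lower. All 5 falls of at least 2-fold are among these 6, so nothing is read from their share. In the 24 genes with both means above the floor, 7 were lower (25.8% of all such genes), 11 higher (40.6%) and 6 not called, with a median change of -0.01 beside 0.05 over all genes tested. Of these 24, 0 fell at least 2-fold. This class requires a PFOS mean at or above the floor, which bounds the falls of genes near it, so nothing is read from that count. When all 72 were fitted without the filter, 27 were lower (21.1% of all genes) and 15 higher (34.6%), and the median change was -0.03 beside 0.05 over all 18193 genes.

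**Figure D1:**
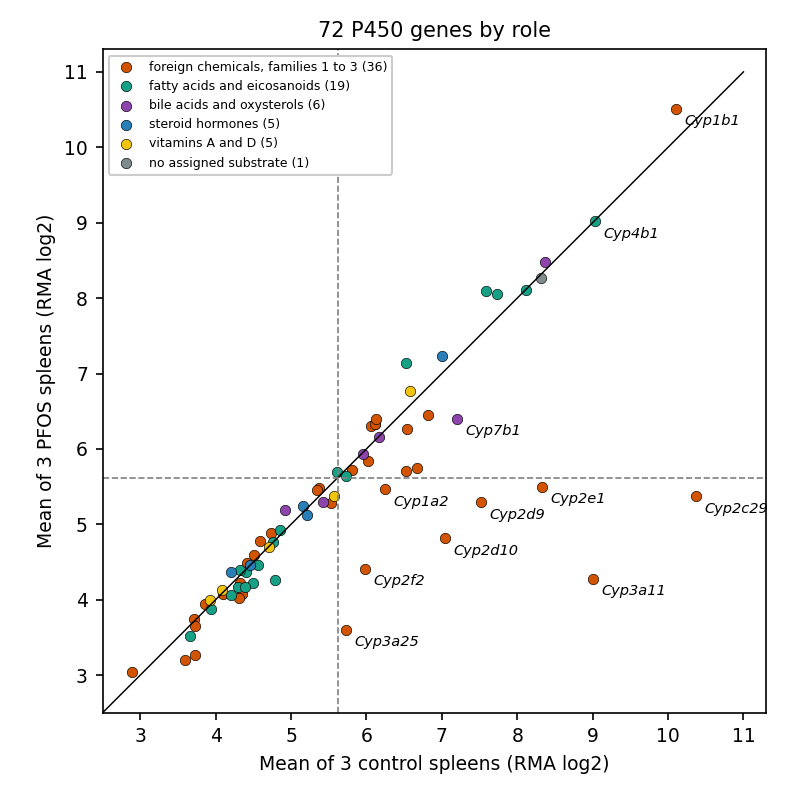
Mean RMA log2 value of each of the 72 P450 genes in 3 PFOS spleens (vertical axis) against 3 control spleens (horizontal axis), coloured by role, with dashed lines at the floor of 5.62 and a solid line of equality. Most genes lie near the line, and the 8 genes labelled under the horizontal dashed line, all of families 1 to 3, pass the floor in control spleens alone.

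The 8 genes above the floor in control spleens alone were Cyp2c29, Cyp3a11, Cyp2e1, Cyp2d9, Cyp2d10, Cyp3a25, Cyp2f2 and Cyp1a2, all of them liver enzymes of families 1 to 3. Cyp2c29 and Cyp3a11 changed most, by 32.0-fold and 26.5-fold. Fitted without the filter, all 8 were lower and all 8 had every PFOS array below every control array, against 72.3% and 78.6% of the 206 genes of this floor class. The class was set by the same values, so nothing is read from these counts. The size of each fall depends on the background of the array, because every PFOS mean lies under the floor.

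Cyp2c29, a liver enzyme induced through CAR, had values of 4.99, 5.53 and 5.61 in PFOS spleens, against 10.33, 10.41 and 10.39 in control spleens. The log2 change was -5.00 ± 0.15 (SE; limma adjusted p = 1.45e-07). Cyp3a11, a main drug-oxidizing enzyme of mouse liver and a PXR target, had 3.97, 4.45 and 4.42 in PFOS, against 8.997, 9.05 and 8.98 in control, a change of -4.73 ± 0.12 (adjusted p = 6.34e-08). In both genes the first PFOS array was the lowest, and the groups lay far apart. Cyp2e1, which oxidizes ethanol and paracetamol, had 5.31, 5.54 and 5.65 in PFOS, against 8.37, 8.30 and 8.34 in control (change -2.84 ± 0.08, limma adjusted p = 9.70e-08).

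Cyp2d9, a steroid hydroxylase known from male mouse liver, had 5.21, 5.29 and 5.37 in PFOS, against 7.43, 7.50 and 7.64 in control (change -2.23 ± 0.06, limma adjusted p = 8.95e-08). Cyp2d10 had 4.78, 4.87 and 4.79 in PFOS, against 6.998, 7.04 and 7.08 in control (change -2.22 ± 0.04, adjusted p = 1.15e-08). In both genes every PFOS array lay under the floor and every control array above it. Cyp1a2, the caffeine-oxidizing enzyme of liver, had 5.39, 5.65 and 5.36 in PFOS, against 6.02, 6.39 and 6.35 in control. It changed by -0.79 ± 0.11 (limma adjusted p = 0.000599), less than 2-fold, with no overlap between groups. The other 2 genes did not reach the filter. Cyp3a25, a second liver Cyp3a gene, had 3.29, 3.89 and 3.64 in PFOS, against 6.004, 5.58 and 5.597 in control. Cyp2f2, which oxidizes naphthalene in lung and liver, had 4.55, 4.40 and 4.27 in PFOS, against 6.204, 5.95 and 5.80 in control. Without the filter they changed by -2.12 ± 0.17 (adjusted p = 4.92e-05) and -1.58 ± 0.11 (adjusted p = 2.46e-05) in limma.

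**Figure D2:**
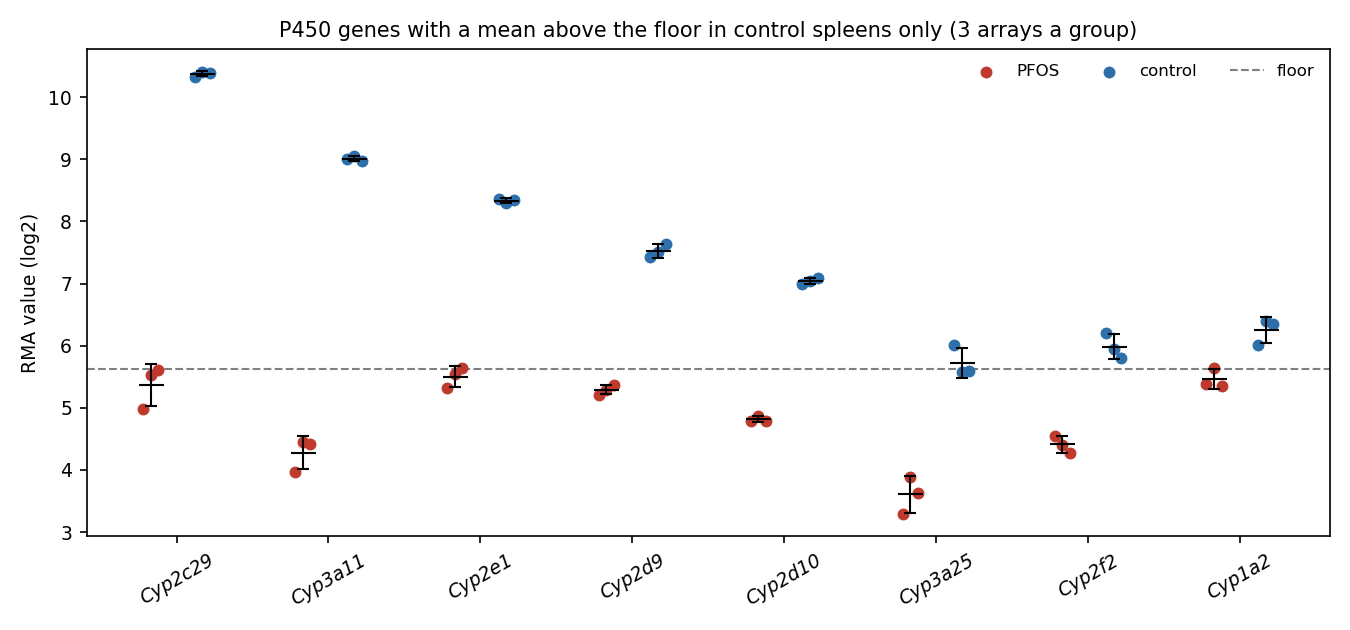
RMA log2 values of the 8 P450 genes above the floor in control spleens alone, with 3 PFOS arrays (red, left) and 3 control arrays (blue, right) for each gene, bars for mean ± SD and a dashed line at the floor of 5.62. The groups do not overlap in any of the 8 genes, and the gap is widest for Cyp2c29 and Cyp3a11. The class was set by these same values, so nothing is read from the lack of overlap.

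The promoters of these 8 genes were read from RefSeq (GRCm38.p6), which held a window of 300 bases, from 250 before to 50 after the start, for 51 of the 72 P450 genes. To show the start regions of the genes described above, the 40 bases before and the 10 after each start are shown, 5′ to 3′ on the gene's strand, with capitals for TATAAA or its reverse complement TTTATA. On the plus strand lie that of Cyp2c29 at chr19:39287045-39287094, that of Cyp2e1 at chr7:140763779-140763828, that of Cyp2d9 at chr15:82452337-82452386 and that of Cyp2f2 at chr7:27119915-27119964. On the minus strand lie that of Cyp3a11 at chr5:145879845-145879894, that of Cyp2d10 at chr15:82407185-82407234, that of Cyp3a25 at chr5:146009608-146009657 and that of Cyp1a2 at chr9:57683646-57683695. Cyp3a25 had 2 windows, of which 1 is shown.
Cyp2c29: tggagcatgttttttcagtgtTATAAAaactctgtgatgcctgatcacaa
Cyp3a11: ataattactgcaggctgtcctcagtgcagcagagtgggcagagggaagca
Cyp2e1: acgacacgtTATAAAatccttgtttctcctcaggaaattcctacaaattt
Cyp2d9: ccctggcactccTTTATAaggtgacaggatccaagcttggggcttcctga
Cyp2d10: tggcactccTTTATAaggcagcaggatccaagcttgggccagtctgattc
Cyp3a25: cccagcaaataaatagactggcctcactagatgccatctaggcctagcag
Cyp2f2: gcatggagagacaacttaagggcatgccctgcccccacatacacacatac
Cyp1a2: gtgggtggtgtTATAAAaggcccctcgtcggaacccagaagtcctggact

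The TATA box is the core promoter element that positions the start of transcription a short way downstream. TATAAA, on either strand, was present in the windows of 6 of the 8 genes. Counted from the start, its first base lay at -31 in Cyp2e1 and Cyp2d10, at -29 in Cyp1a2, at -28 in Cyp2d9 and at -19 in Cyp2c29. In Cyp3a11 it lay at -234, outside the stretch shown. The matches in Cyp2d9 and Cyp2d10 were on the reverse strand. Of the 19 P450 genes above the floor in both groups that had a window, 5 held TATAAA. Over all 51 P450 genes with a window 21 held it, as did 13.6% of the 32851 mouse promoter windows. The same windows were searched on both strands for 3 other motifs, none of which is contained in another. CAAAGTCCA, a core bound by the liver factor Hnf4a, was in 1 of the 8 genes, 2 of the 19 and 0.475% of all windows. AGTTCA, a core bound by nuclear receptors, was in 1 of the 8, 5 of the 19 and 14% of all windows. GCGTG, the core bound by Ahr with Arnt, was in 0 of the 8, 7 of the 19 and 32.4% of all windows. The window of Cyp3a11 (chr5:145879805-145880104, minus strand) is the 1 of the 8 with the Hnf4a core, and is shown whole with TATAAA and CAAAGTCCA in capitals.
Cyp3a11: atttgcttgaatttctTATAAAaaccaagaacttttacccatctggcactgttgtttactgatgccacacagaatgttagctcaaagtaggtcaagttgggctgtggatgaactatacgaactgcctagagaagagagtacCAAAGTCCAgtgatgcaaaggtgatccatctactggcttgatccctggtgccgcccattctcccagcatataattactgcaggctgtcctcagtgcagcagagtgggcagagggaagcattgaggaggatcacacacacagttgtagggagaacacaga

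Markers of hepatocytes moved with these genes. All 17 tested members of a list of 22 hepatocyte genes were lower in PFOS, with a median change of -2.95, beside 26.0% lower and a median of 0.05 over all genes tested. Of the 17, 6 had a PFOS mean above the floor, and the others passed the filter through their control arrays alone and so could only be lower. The list's summed level lay between 9.67 and 9.74 (log2) in PFOS and at 12.76 on all 3 control arrays. Albumin (Alb) had a mean of 5.87 in PFOS and 11.03 in control, and fibrinogen chain Fga 3.59 in PFOS and 8.61 in control. Pancreatic acinar markers were also lower in 6 of 6 tested cases (median -0.56), with a summed level of 9.29 to 9.42 in PFOS and 10.24 to 10.28 in control. Kidney tubule markers (2 of 6 tested higher and 0 lower) and adrenal cortex markers (1 of 3 higher and 1 lower) had medians of 0.08 and 0.07. With scaling on the labelling spikes, 16 of the 17 hepatocyte markers were still lower and 2 of the 6 acinar markers, beside 5.52% of all genes tested. The part of hepatocyte or other foreign RNA in the P450 falls was not tested, and in a bulk sample fewer cells of a type cannot be told apart from less RNA per cell.

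**Figure D3:**
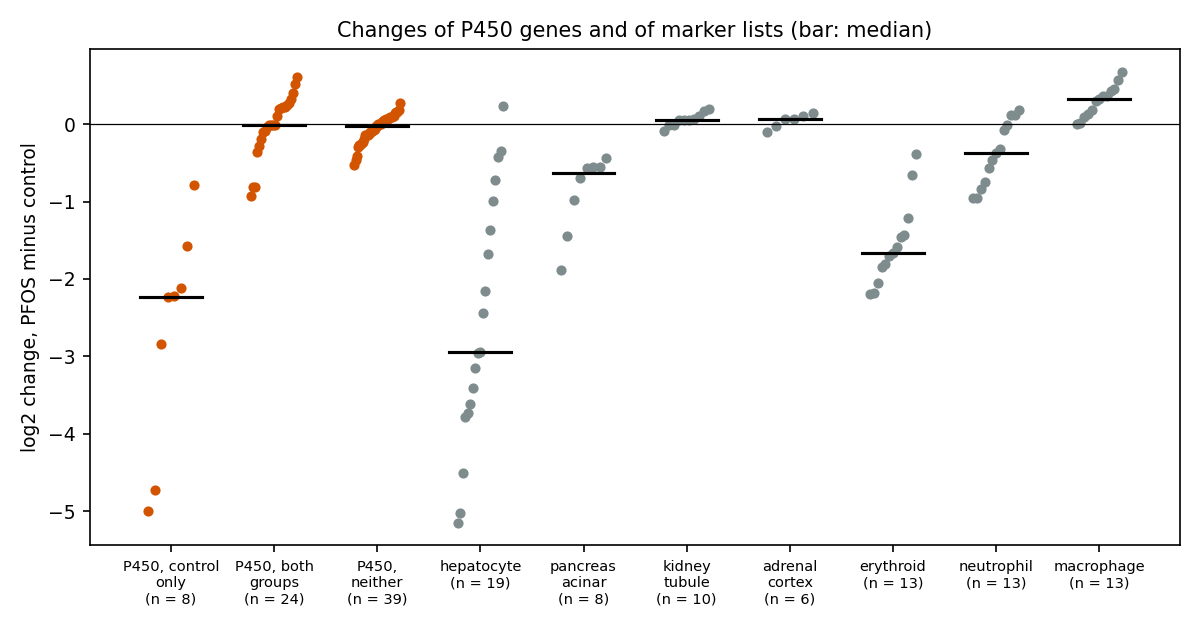
log2 change (PFOS minus control) of each P450 gene in orange, by its floor class, and of each marker gene on the array in grey, by list, with the median as a bar. The 8 P450 genes above the floor in control alone lie among the hepatocyte markers, and the P450 genes above the floor in both groups or in neither have medians of -0.01 and -0.03. The floor classes were set by these same values, so nothing is read from where each class lies.

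Families 1 to 3 were also counted by subfamily. The Cyp2c cluster on chromosome 19 had 11 genes, of which 6 were tested, 4 were lower and 1 higher (26.0% and 40.6% of all genes tested). Of the 4, Cyp2c29 reached the filter through its control arrays alone and so could only be lower. Cyp2c70, which makes muricholic bile acids in mouse liver, had 5.73, 5.74 and 5.77 in PFOS, against 6.61, 6.77 and 6.62 in control (change -0.92 ± 0.05, limma adjusted p = 2.20e-06). Cyp2c50 had 5.49, 5.81 and 5.81 in PFOS, against 6.46, 6.71 and 6.39 in control (change -0.81 ± 0.11, limma adjusted p = 0.000381), and its lowest PFOS array was under the floor. Cyp2c39 was lower by little (change -0.19 ± 0.04), while Cyp2c38 rose by 0.22 ± 0.03 and Cyp2c68 was not called (change -0.09 ± 0.04, limma adjusted p = 0.0756). The PFOS arrays lay below the control arrays in 6 of the 11 Cyp2c genes and above them in 1, where groups failed to overlap in 24.0% and 38.8% of all genes in these directions. The other 5 Cyp2c genes (Cyp2c23, Cyp2c37, Cyp2c54, Cyp2c55 and Cyp2c65) were under the floor in both groups.

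The Cyp2d cluster on chromosome 15 was split. Beside the falls of Cyp2d9 and Cyp2d10, Cyp2d22 rose by 0.21 ± 0.05 and Cyp2d13 by 0.25 ± 0.09 (limma adjusted p = 0.0104 and 0.0348). Cyp2d13 had 6.45, 6.31 and 6.17 in PFOS, against 6.13, 5.90 and 6.14 in control, so that the closest arrays of the groups nearly touched. Its second probe set, under the floor, differed the other way by -0.06, and its call was lost without PFOS replicate 1 (adjusted p = 0.0992), PFOS replicate 2 (0.0747) or control replicate 2 (0.0960). The other 4 Cyp2d genes were under the floor in both groups. In the Cyp3a cluster on chromosome 5, Cyp3a13, Cyp3a16 and Cyp3a44 were under the floor in both groups, with no mean above 3.73.

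Cyp2b10, the classic target of CAR, had 6.48, 6.48 and 6.39 in PFOS, against 6.88, 6.77 and 6.78 in control, a change of -0.36 ± 0.04 (limma adjusted p = 0.000170). Its 2 other probe sets, both under the floor, differed by -0.10 and -0.14. Cyp2a12, a bile acid hydroxylase of mouse liver, changed by -0.28 ± 0.07 (limma adjusted p = 0.0107). With scaling on the labelling spikes Cyp2b10, Cyp2a12 and Cyp2c39 turned to rises of 0.18, 0.25 and 0.34, so their direction rests on the scaling. The 8 genes of the control-only class, Cyp2c70, Cyp2c50 and the probe set that stands for Cyp7b1 changed by more than 0.53 and kept theirs. A second Cyp7b1 probe set above the floor changed by -0.47, less than 0.53 in size, so its direction rests on the scaling. In mouse liver Cyp2b9, Cyp2b13 and Cyp3a44 are known as female-biased and Cyp2d9 and Cyp4a12a as male-biased. Of the female-biased genes, Cyp2b9 had a mean of 4.22 in PFOS and 4.32 in control, Cyp2b13 4.89 in PFOS and 4.74 in control, and Cyp3a44 3.20 in PFOS and 3.60 in control. Of the male-biased genes, Cyp4a12a had 4.26 in PFOS and 4.79 in control, under the floor, and Cyp2d9 passed the floor in control.

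The dioxin-inducible Cyp1 family had no common direction. Cyp1b1, a P450 of stromal and myeloid cells that acts on oestrogens and polycyclic compounds, had 10.50, 10.52 and 10.51 in PFOS, against 10.08, 10.13 and 10.10 in control. It rose by 0.41 ± 0.03, or 1.33-fold (limma, adjusted p = 7.21e-06). Its further probe sets differed by 0.15 and 0.03 with overlapping groups, and the latter lay under the floor. Cyp1a1, the usual marker of Ahr activation, stayed under the floor at 5.53, 5.44 and 5.47 in PFOS, against 5.48, 5.28 and 5.36 in control, with overlapping groups. Cyp2s1, another Ahr-inducible gene, had 6.32, 6.49 and 6.39 in PFOS, against 6.03, 6.25 and 6.09 in control, a rise of 0.28 ± 0.07 (limma adjusted p = 0.00706). The core bound by Ahr with Arnt was present in the windows of Cyp1b1, which rose, and of Cyp1a1, whose groups overlapped. It was absent from the windows of Cyp2s1, which rose, and of Cyp1a2, which fell. Of all mouse promoter windows 32.4% held this core, and its part in these changes was not tested. The promoter of Cyp1b1 (chr17:79715012-79715311, minus strand) is shown with capitals for CACGC, the reverse complement of GCGTG. The window holds no TATAAA.
Cyp1b1: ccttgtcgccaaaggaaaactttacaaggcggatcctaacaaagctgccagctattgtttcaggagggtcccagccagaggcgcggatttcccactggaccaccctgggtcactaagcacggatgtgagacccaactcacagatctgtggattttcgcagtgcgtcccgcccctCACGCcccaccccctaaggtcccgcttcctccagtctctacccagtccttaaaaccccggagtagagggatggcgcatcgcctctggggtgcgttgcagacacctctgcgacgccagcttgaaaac

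Enzymes of fatty acids and eicosanoids (Cyp2j, Cyp2u and Cyp4) had 19 genes, of which 7 were tested. Of these 7, 3 were higher, 1 was lower and 3 were not called, beside 40.6% higher and 26.0% lower of all genes tested. The rises lay in the Cyp4f subfamily, whose enzymes hydroxylate leukotrienes and fatty acids at the far end of the chain. Cyp4f13 had 7.20, 7.07 and 7.14 in PFOS, against 6.55, 6.48 and 6.52 in control, a rise of 0.62 ± 0.04, or 1.53-fold (limma adjusted p = 7.62e-06). This was the largest rise among the 31 tested P450 genes. Cyp4f18, which inactivates leukotriene B4 in mouse neutrophils, had 8.10, 8.08 and 8.12 in PFOS, against 7.61, 7.51 and 7.63 in control, a rise of 0.52 ± 0.04 (limma adjusted p = 1.33e-05). Cyp4f16 had 8.07, 8.07 and 8.04 in PFOS, against 7.75, 7.70 and 7.73 in control, a rise of 0.33 ± 0.03 (limma adjusted p = 2.12e-05). In all 3 genes the groups lay apart by several times the spread within a group. The further probe sets of Cyp4f16 and Cyp4f18 were higher by 0.12 and 0.14, that of Cyp4f18 under the floor.

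Cyp4f15 was lower by a small amount, at 5.64 ± 0.01 in PFOS and 5.73 ± 0.03 in control (SD, n = 3; change -0.10 ± 0.03, limma adjusted p = 0.0132), near the floor, and turned to 0.44 with scaling on the labelling spikes. Cyp4b1 (9.02 in PFOS and 9.03 in control), Cyp4v3 (8.11 and 8.12) and Cyp2u1 (5.69 and 5.61) were not called. For Cyp4v3 a second probe set gave 5.77 in PFOS and 5.50 in control, a difference of 0.27, so the probe sets disagree. The remaining Cyp4f genes, all Cyp2j and Cyp4a genes and Cyp4x1 were under the floor. Among them are Cyp4a14, a classic PPAR-alpha target in mouse liver, at 4.07 in PFOS and 4.21 in control, and Cyp4a12a. One of the probe sets of Cyp2j5, an epoxygenase of kidney and liver, had means of 3.73 in PFOS and 4.63 in control, while the probe set that stands for the gene had 4.37 and 4.40.

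Cell type markers of the spleen moved in the same arrays as the Cyp4f rises, where 40.6% of all genes tested were higher and 26.0% lower. Macrophage markers were higher in 11 of 13 tested cases and lower in 0 (summed level 14.95 to 14.96 in PFOS and 14.63 to 14.64 in control). B cell markers were higher in 8 of 9 and T and NK cell markers in 9 of 10, with 1 lower, and dendritic cell markers in 6 of 8. Neutrophil markers were lower in 8 of 12 and higher in 2 (12.13 to 12.16 in PFOS and 12.60 to 12.62 in control), and erythroid markers were lower in 13 of 13 (14.32 to 14.33 in PFOS and 15.54 to 15.56 in control). With scaling on the labelling spikes, 6 of 12 neutrophil markers were higher and 4 lower, while all 13 macrophage markers were higher and 12 of 13 erythroid markers lower. Under that scaling 92.1% of all genes tested were higher and 5.52% lower. The part of these shifts in the P450 changes was not tested.

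**Figure D4:**
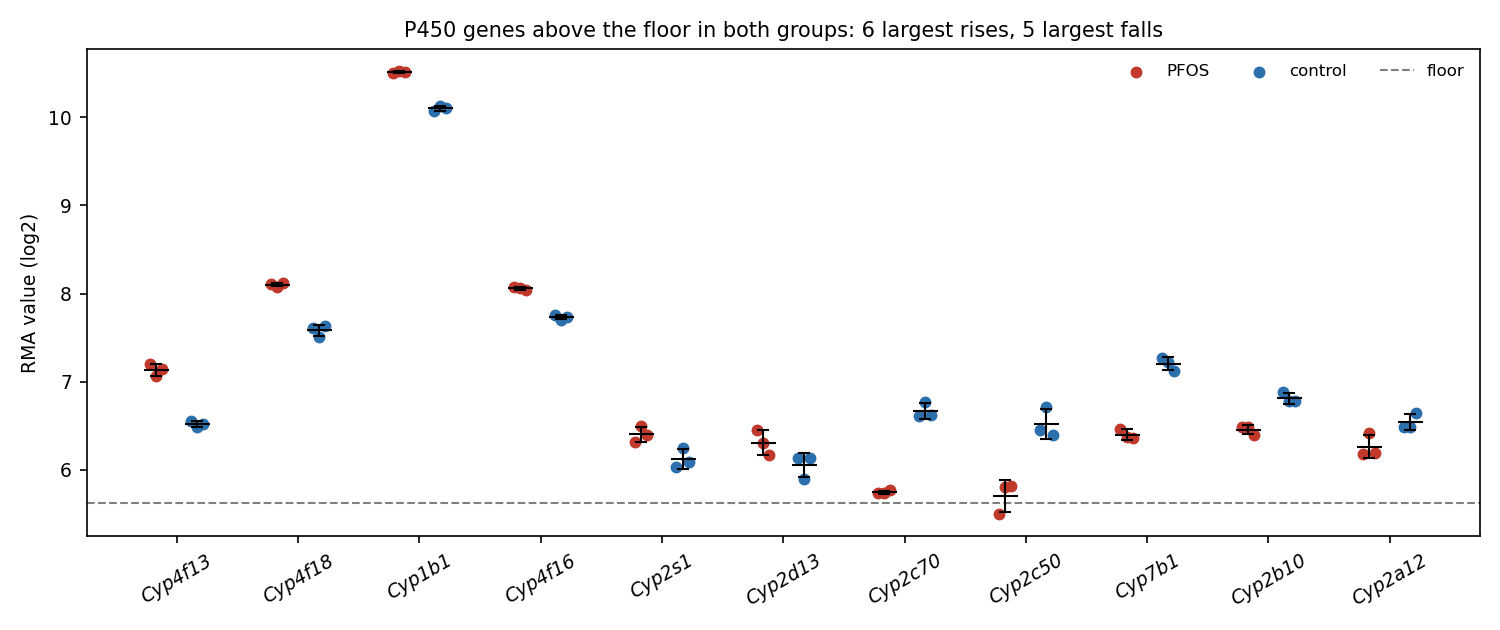
RMA log2 values of P450 genes above the floor in both groups, the 6 that rose most and the 5 that fell most, with 3 PFOS arrays (red, left) and 3 control arrays (blue, right) for each gene, bars for mean ± SD and a dashed line at the floor of 5.62. The groups do not overlap in any of these genes, and the arrays of Cyp2d13 come closest to each other. The genes were picked by the size of their called changes, so nothing is read from the lack of overlap. Over all genes, PFOS lay below control on every array in 24.0% and above it in 38.8%.

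Enzymes of bile acids and oxysterols had 6 genes, of which 4 were tested. Cyp7b1, the oxysterol hydroxylase that stromal cells of lymphoid organs use to make the ligand of the positioning receptor Gpr183, had 6.47, 6.37 and 6.36 in PFOS, against 7.27, 7.22 and 7.12 in control. It fell by 0.81 on the log2 scale, or 1.75-fold (SE 0.05, limma adjusted p = 4.72e-06). A second probe set was lower too (6.10 in PFOS and 6.57 in control), by less than the 0.53 that scaling on the labelling spikes adds. The remaining one, under the floor, had 3.88 in PFOS and 3.80 in control. Genes that act with Cyp7b1 were looked at after its value was seen. Ch25h, which makes its substrate, had 6.69 in PFOS and 6.67 in control, and Hsd3b7, which degrades the ligand, had 7.61 in PFOS and 7.60 in control, and neither was called. Gpr183 rose by 0.40 ± 0.03 (limma adjusted p = 2.74e-05). Of the 11 stromal and endothelial markers, 3 were higher and 4 lower (40.6% and 26.0% of all genes tested), with a median change of -0.01. With scaling on the labelling spikes 9 of these markers were higher and 2 lower (92.1% and 5.52% of all genes tested). Their summed level was 13.17 to 13.19 in PFOS and 13.49 to 13.52 in control, and the part of these in the fall of Cyp7b1 was not tested. Hepatocyte markers were lower in the same arrays (summed level 9.67 to 9.74 in PFOS and 12.76 in control), and their part in this fall was not tested either.

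Cyp27a1, a mitochondrial sterol hydroxylase of liver and macrophages, had 8.48, 8.49 and 8.45 in PFOS, against 8.28, 8.43 and 8.39 in control. The rise of 0.11 ± 0.04 was called at a limma adjusted p of 0.0468, and the call was lost without any 1 of 5 arrays (PFOS replicate 1, 2 or 3 and control replicate 1 or 3, adjusted p from 0.0657 to 0.118). Cyp7a1, the rate-limiting enzyme of bile acid synthesis, had means of 5.94 in PFOS and 5.95 in control, and Cyp46a1, the cholesterol hydroxylase of brain, had 6.16 in both, and neither was called. A second probe set of Cyp7a1 lay under the floor, at 3.76 in both groups. Cyp8b1 and Cyp39a1 were under the floor.

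Steroid hormone and vitamin enzymes had 5 genes each, and 1 of each was tested. Cyp21a1, a steroid hydroxylase of the adrenal cortex, rose by 0.22 ± 0.06 (7.23 in PFOS and 7.01 in control, limma adjusted p = 0.0131), and a second probe set was higher by 0.17. Its call was lost with scaling on ribosomal protein genes (change 0.15, adjusted p = 0.0696). Cyp26b1, which degrades retinoic acid, rose by 0.19 ± 0.04 (6.77 in PFOS and 6.58 in control, limma adjusted p = 0.00408). The steroid enzymes Cyp11a1, Cyp11b1, Cyp11b2 and Cyp17a1 and the vitamin enzymes Cyp24a1, Cyp26a1, Cyp27b1 and Cyp2r1 were under the floor in both groups. Cyp20a1, which has no assigned substrate, had 8.27 in PFOS and 8.31 in control and was not called (limma adjusted p = 0.366).

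**Figure D5:**
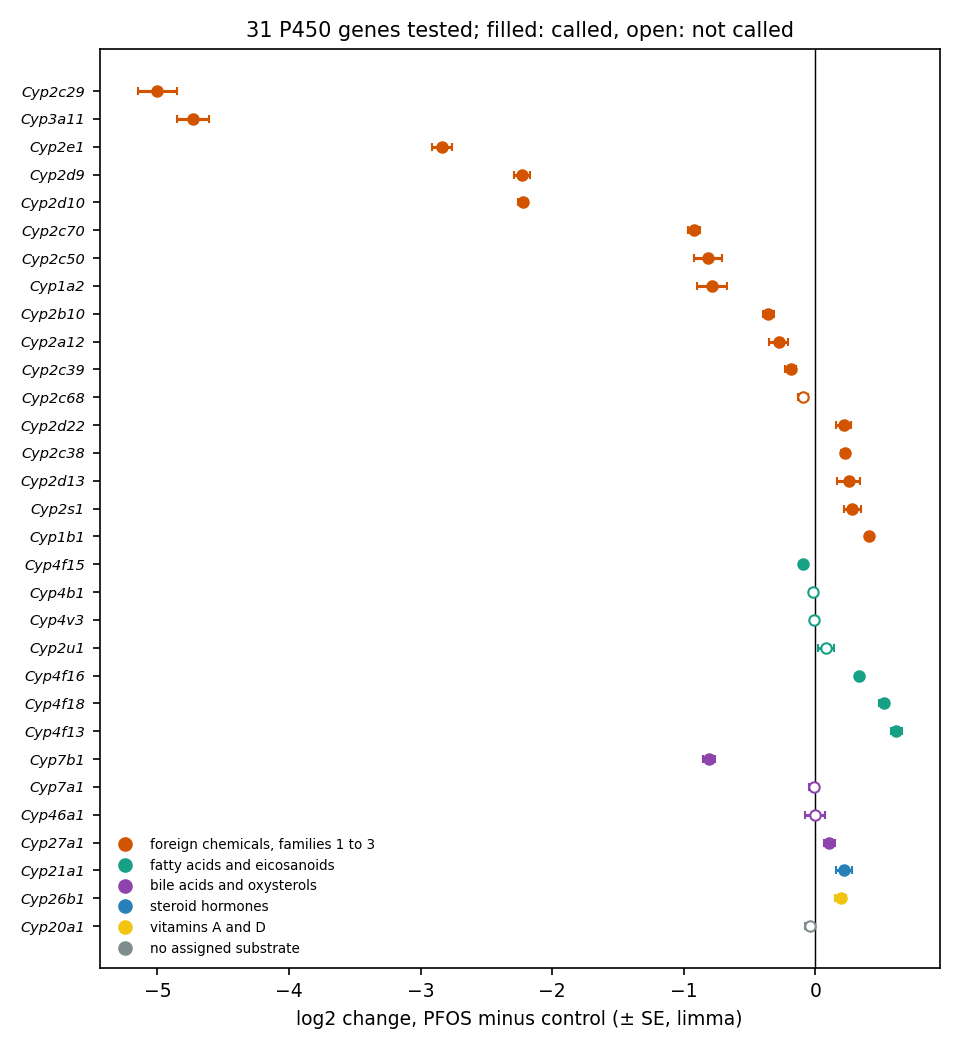
log2 change (PFOS minus control) with limma's SE for the 31 P450 genes tested, by role, with filled points for called genes and open points for those not called. The 5 falls of at least 2-fold are all of genes of families 1 to 3 that pass the floor in control alone, and no rise exceeds 0.62.

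The 39 genes under the floor in both groups had changes between -0.53 and 0.28 and a median of -0.03. Without the filter, 12 of them were called lower and 5 higher (21.1% and 34.6% of all 18193 genes), values that concern background-level signal. A further 4 probe sets carry several P450 symbols and were left out of the 72 genes. Among these, the one shared by Cyp4f37 and Cyp4f16 had means of 6.64 in PFOS and 6.19 in control, the one shared by Cyp2a5 and Cyp2a4 had 4.92 in PFOS and 5.19 in control, and the others differed by -0.02 and -0.03.

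Genes that work with P450 enzymes changed in both directions in the main setting. Of 14 listed electron transfer and haem partners, 11 were tested, 4 were lower, 3 higher and 4 not called, with a median change of 0.02, beside 26.0% lower, 40.6% higher and a median of 0.05 over all genes tested. With scaling on the labelling spikes 1 was lower and 9 were higher, beside 5.52% and 92.1% of all genes tested. The call of Blvra, 1 of the 3 higher in the main setting, was lost with scaling on ribosomal protein genes (limma adjusted p = 0.802). Biliverdin reductase B (Blvrb), which acts on haem breakdown and is abundant in red cells, fell by 1.24 on the log2 scale (9.86 in PFOS and 11.10 in control). Cyb5a, the cytochrome that passes electrons to P450 enzymes, had 11.05 in PFOS and 11.58 in control (change -0.52 ± 0.02), Pgrmc2, a haem chaperone, changed by -0.34 ± 0.04, and the haem oxygenase Hmox2 rose by 0.33 ± 0.03 (limma adjusted p from 1.76e-08 to 0.000159 for these 4). With scaling on the labelling spikes, the change of Cyb5a turned to 0.01, that of Pgrmc2 to 0.19 and that of Cyb5r3, the other lower partner, from -0.15 to 0.38. Alas1, the first enzyme of haem synthesis in liver, was not called (7.70 in PFOS and 7.74 in control).

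Of 24 listed regulators of P450 genes, 15 were tested, 7 were higher, 2 lower and 6 not called, with a median change of 0.13, beside 40.6% higher, 26.0% lower and a median of 0.05 over all genes tested. With scaling on the labelling spikes all 15 were higher, beside 92.1% of all genes tested. The 2 lower ones, Onecut1 and Vdr, had PFOS means under the floor (5.60 and 5.55) and control means above it (5.90 and 5.71). They reached the filter through control and so could only be lower. Under the spike scaling Onecut1 and Vdr turned to 0.23 and 0.38, and the calls of Rxra, Rxrb and Foxa2 were lost with scaling on ribosomal protein genes. Cebpa, a factor of liver and myeloid cells, rose by 0.55 ± 0.04, Ahr by 0.21 ± 0.02, its partner Arnt by 0.26 ± 0.03 and the oxysterol receptor Nr1h3 by 0.23 ± 0.04 (limma adjusted p from 1.28e-05 to 0.000803). Among the receptors that switch on liver P450 genes, Ahr lay above the floor, at 7.99 in PFOS and 7.78 in control, as did the liver factor Hnf4a, at 6.86 in PFOS and 6.91 in control. The bile acid receptor Nr1h4 had 5.25 in PFOS and 5.73 in control. Under the floor in both groups, CAR (Nr1i3) had 4.71 in PFOS and 4.76 in control, PXR (Nr1i2) 5.08 in PFOS and 5.22 in control, and Ppara 5.02 in PFOS and 4.95 in control. Of 7 other Ahr targets, 3 were tested. The quinone reductase Nqo1, also an NRF2 target, fell by 1.08 on the log2 scale (6.67 in PFOS and 7.75 in control), while Lpcat2 rose by 0.49 ± 0.04 and Tiparp by 0.14 ± 0.05 (limma adjusted p from 7.23e-07 to 0.0372). The call of Tiparp was lost with scaling on ribosomal protein genes (adjusted p = 0.197).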

How the data were processed

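The deposited values are log2 values from RMA, which the authors ran per the submitters' processing notes. The RMA version was not given in the sources used here. Per the labels' protocols, 6 ug of Trizol RNA was made into biotin-labelled cRNA, 1 Mouse430_2 array a spleen. Scanner files were not used here, and the number of arrays limits the precision.

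Of 45101 probe sets, 64 array controls, 932 with several symbols and 9160 with none in the platform annotation were left out. Probe sets with a mean over the 6 arrays under the 40th percentile (5.62) were left out too, and the probe set with the highest mean stood for its gene. The 2 groups were compared by lmFit and eBayes of limma 3.58.1 (R 4.3.3), with two-sided p-values adjusted by Benjamini-Hochberg across 13101 genes. The procedure was tested on simulated data. All 95 P450 probe sets carried an identifier found in the gene table of GRCm38.p6, and 0 symbols changed.

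All P450 genes that passed the filter are named, with values on each array for the called 2-fold changes, the 6 largest rises and further genes that results turn on. Of pathway lists the 4 called genes with the smallest p are named, and of marker lists 1 or 2; any other gene was named with its values known. The P450 genes, gene lists and tests were chosen with earlier results of these data known; the sex-linked, spleen identity and oxysterol ligand genes were added after values had been seen. Alternatives covered the replicate block, filter, scaling, probe set choice, prior, array weights, threshold and each array left out.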

Additional observations from a re-analysis of the deposited data

How the results depend on the processing

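The count of P450 genes called lower was 13, and it was 27 without the filter on low values and 3 with a filter at the 60th percentile, under which 12 P450 genes were tested. The count of higher genes was 11, and it was 6 with that stricter filter, 7 at an adjusted p of 0.01 and 22 with scaling on the labelling spikes. Of all genes tested, 92.1% were higher with that spike scaling. The count of genes at least 2-fold lower was 5, and 2 with the stricter filter. Leaving out each array in turn gave 13 to 14 lower, 9 to 10 higher and 5 at least 2-fold lower P450 genes, and 7967 to 8522 called genes in all against 8730. Of all calls, 61.0% were higher in the main setting, 44.8% with scaling on ribosomal protein genes (16 P450 genes lower and 8 higher, with the calls of Cyp27a1, Cyp2d13 and Cyp21a1 lost) and 94.3% with scaling on the labelling spikes (9 lower and 22 higher); these moved the median of all genes by -0.07 and 0.53.

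Scaling on the labelling spikes turned the change of 10 P450 genes: Cyp2b10 (0.18), Cyp2a12 (0.25), Cyp2c39 (0.34), Cyp4f15 (0.44), Cyp2c68 (0.44), Cyp20a1 (0.49), Cyp4b1 (0.52), Cyp7a1 (0.52), Cyp4v3 (0.53) and Cyp46a1 (0.53). All other turns were of genes not called in the main setting. Cyp4v3 turned with the mean of its probe sets (0.13, adjusted p = 0.00738), with probe sets of the _s_at, _x_at and _a_at types left out (0.27, adjusted p = 0.00116), where another probe set stands for the gene, and with quantile normalization (0.0230). Cyp4b1 turned with quantile normalization (0.0303) and Cyp46a1 with array weights (0.0288). With each array left out in turn, the change of Cyp46a1 lay between -0.0984 and 0.0638, that of Cyp4v3 between -0.0300 and 0.0082 and that of Cyp7a1 between -0.0357 and 0.0075. The cause of these turns was not tested, except that scaling on spikes adds 0.53 to every change. Cyp2c68 passed the threshold without PFOS replicate 2 (adjusted p = 0.0164). Over 538 comparisons of single P450 genes between the main setting and an alternative, 491 kept direction and side of the threshold, 21 lost a call, 6 gained one and 20 turned.

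The replicate block gave 13 lower and 11 higher P450 genes and changed no call among them. Same-numbered arrays of both groups correlated in their deviations at 0.32, 0.14 and 0.0970, and 4 of 6 arrays correlated best with their own number; with 1 correlation under 0.1 the numbers were not taken as pairs. Means under the floor are limited by array background, which bounds the falls of the liver P450 genes.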
